A study of Mus musculus with 6 samples.

Results

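The genes described here encode the proteins of the mitochondrial ribosome. They were taken by name, as rows whose symbol starts with Mrpl or Mrps followed by a number. Rows named as pseudogenes (-ps) were left out. The choice of this group was made with earlier results of these data known. Of 19730 rows in the expression table, 75 were members, 46 with an Mrpl name and 29 with an Mrps name. RNA was sequenced from mouse primary mesangial cells, the contractile supporting cells between the capillaries of the kidney glomerulus. Both groups were grown in high-glucose medium (25.5 mM) with 20% foetal bovine serum and were used at passages 3 to 6. The 3 Control libraries carry the treatment label Control. The 3 TGF-β1 libraries came from cells given 10 ng/ml of transforming growth factor beta 1, a secreted profibrotic cytokine, for 72 h. RNA was collected in triplicate, and the study speaks of biological replicates for its other assays, but no source used here says that the RNA replicates were separate cultures, so p-values measure the spread between these libraries, which may be technical.

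Mitochondria keep their own ribosome, which makes the few membrane proteins of the respiratory chain and ATP synthase that mitochondrial DNA encodes. Its RNA is made inside the organelle, whereas every protein of it is encoded in the nucleus, made in the cytosol and imported. Some of these proteins have a bacterial counterpart, and others were added during the evolution of mitochondria. Proteins named Mrpl belong to the large subunit, which joins amino acids. Proteins named Mrps mostly belong to the small subunit, which reads the mRNA, although Mrps18a and Mrps30 sit in the large subunit and Mrps36 is now known as a part of the 2-oxoglutarate dehydrogenase complex.

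Expression was measured as FPKM, a fragment count scaled both to the length of the transcript and to the size of the library. Differences were tested with limma on log2(FPKM + 1), on all 11898 rows with a mean of at least 1 FPKM, with Benjamini-Hochberg adjustment, and an adjusted p under 0.05 is a call. A log2 change below is a difference, TGF-β1 minus Control, on that scale. All 75 members passed the filter, so none is missing from the counts. The smallest steps between FPKM values gave library depths of 10.13 to 11.04 M fragments. A member rested on a mean of 63.8 to 3741 fragments per library (median 420.5). That gives a counting error of 4.88% for the median member and 12.5% for the shallowest, and these figures cover counting error only. They assume the length of the transcript named in each row, while 58 of the 75 members have several annotated transcripts.

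Few members were called with TGF-β1, and in the fit of all 6 libraries every estimated change was under 2-fold. A member without a call is not shown to be unchanged, since some intervals were wide, as in Mrpl12 (-1.23 to 1.74). Of the 75 members, 14 were called (18.7%), against 48.1% of all tested rows. Mrps33, Mrpl20, Mrpl36, Mrps6 and Mrpl13 were higher with TGF-β1, which is 6.67% of members against 24.5% of all tested rows. Mrps34, Mrpl14, Mrpl48, Mrps11, Mrpl24, Mrps18a, Mrpl27, Mrpl23 and Mrps5 were lower, which is 12% of members against 23.6% of all tested rows. The log2 changes ran from -0.73 to 0.93, 41 of 75 were above 0, and their median was 0.06, which turned to -0.13 with libraries scaled to the summed FPKM of protein-coding rows. That scaling moved the median of all rows from -0.02 to -0.19, and with it 5 members were called higher and 17 lower, against 2003 and 3924 of all rows. No member reached 1 on the log2 scale in the fit of all 6 libraries, a size that 15.5% of all tested rows reached or passed. The values of the 3 Control and the 3 TGF-β1 libraries did not overlap in 24 members (32%), against 59.4% of all tested rows.

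**Figure D1:**
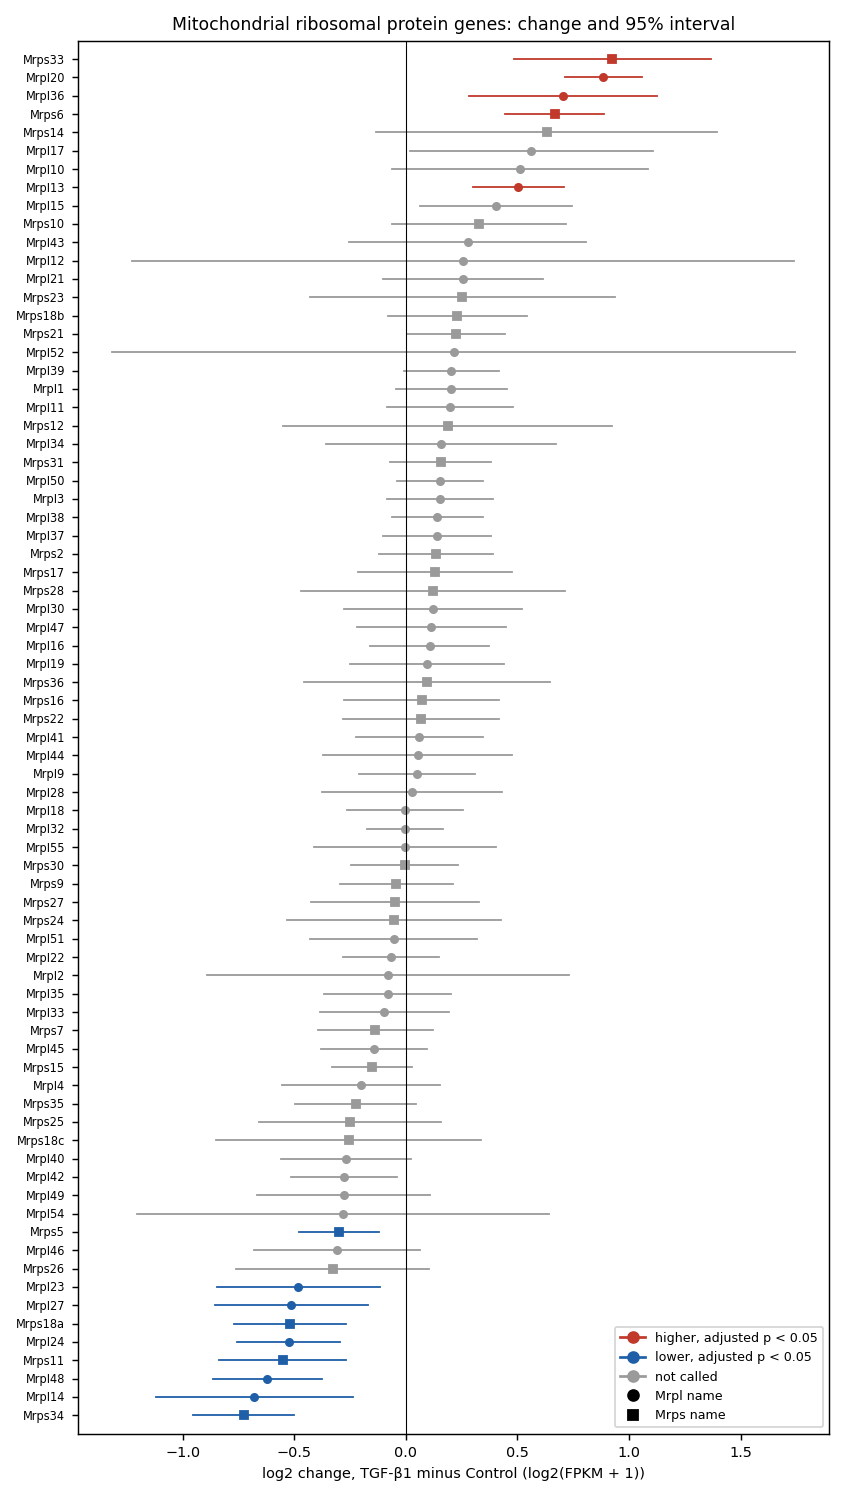
Log2 change (TGF-β1 minus Control, x axis, on the log2(FPKM + 1) scale) of each of the 75 members, with its 95% interval from limma. Circles are Mrpl and squares Mrps names, red marks the 5 members called higher, blue the 9 called lower, and the estimates run from Mrps34 at -0.73 to Mrps33 at 0.93.

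The members' replicates spread more than those of all tested rows, and their changes were smaller. The median SD within groups was 0.19 on the log2 scale in members and 0.15 in all tested rows, while the median absolute change was 0.20 in members and 0.40 in all tested rows. Among 4805 protein-coding rows in the same range of expression (mean FPKM of 11.3 to 151), 52.3% were called, with a median absolute change of 0.38. The median SD within groups of these rows was 0.14, below the 0.19 of members. The spread was not particular to the members. Genes for oxidative phosphorylation subunits and cytosolic ribosomal proteins, described below, had median SDs within groups of 0.19 and 0.18. Their median absolute changes were both 0.27, above the 0.20 of members and below the 0.40 of all tested rows. The part of the wider spread in the members' lower share of calls was not tested. The summed level of the members was 4721, 3924 and 4101 FPKM in Control replicates 1 to 3 and 4726, 4034 and 4634 FPKM in TGF-β1 replicates 1 to 3. These sums overlapped between the groups, and the replicate 2 library had the lowest sum of its group in both. A sum is weighted towards the most abundant members. By median FPKM of the members, the lowest Control library was replicate 3 (36.07, against 38.0 in replicate 2). The lowest TGF-β1 library by median was replicate 2 (37.65).

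Some libraries stood apart in a part of the members, and results are therefore also given without them. In 15 members (20%) both replicate 2 libraries were below the other 4 libraries, against 4.79% of all tested rows. None of the 15 was called, but the pattern itself makes the groups overlap, so no conclusion is drawn from that. The gap between the higher of the replicate 2 libraries and the lowest of the other 4 was 2.18-fold in Mrpl12, 1.83-fold in Mrpl52 and 1.505-fold in Mrps12. The 15 members had a median GC content of 54%, and the others 50.6%. In TGF-β1 replicate 2, the deviation of a member from its group mean fell with GC content, with Spearman's rho of -0.382 over 69 members and -0.391 over all rows, as a description, since all members share that library. In Control replicate 2 the same rho was -0.112 in members and 0.0107 over all rows. Control replicate 3 was the lowest of the 6 libraries in 20 members (26.7%), against 19.4% of all tested rows. Control replicate 2 was the lowest in 19 members and TGF-β1 replicate 2 in 16, so this count does not set Control replicate 3 apart. The gap of Control replicate 3 to the next library was 2.26-fold in Mrps14, 1.502-fold in Mrpl17 and 1.38-fold in Mrpl30. In Mrps21 it was 1.001-fold. With the trend on GC content and length removed, all 13 called members that could be fitted stayed called, and without Control replicate 3, 11 of the 14 did.

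**Figure D2:**
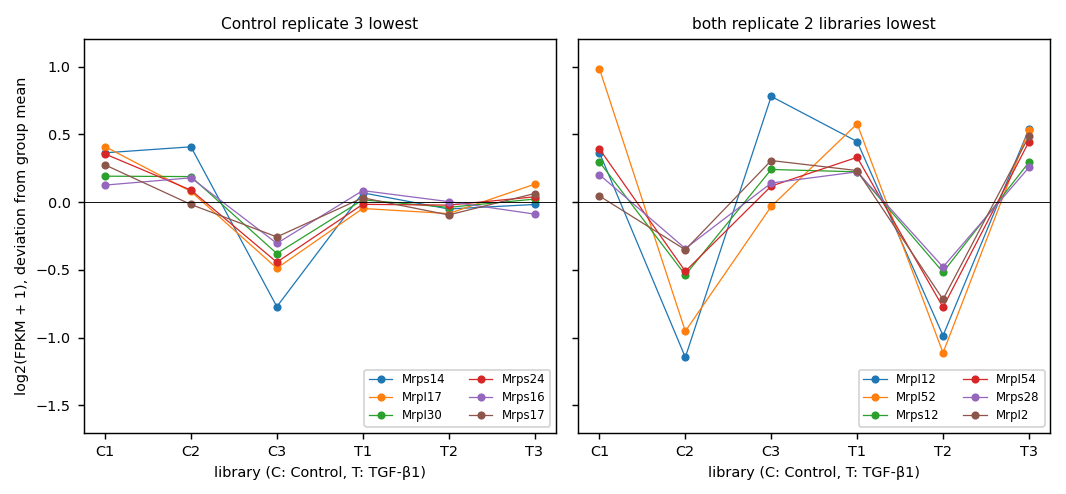
Deviation from the group mean, on the log2(FPKM + 1) scale (y axis), in each of the 6 libraries (x axis), for the 6 members with the widest gap in each pattern. On the left Control replicate 3 lies lowest, with Mrps14 2.26-fold under the next library, and on the right both replicate 2 libraries lie lowest, with Mrpl12 2.18-fold under the other 4.

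With replicates 1 and 3 alone, 13 members were called (17.3%), against 35.3% of all tested rows, and 10 of the 14 calls above remained. Across the alternatives of processing at the same threshold, 8 of the 14 were called in each: Mrpl20, Mrps33, Mrps6, Mrpl13, Mrps34, Mrpl48, Mrpl24 and Mrps18a. Of the 61 members that were not called, 41 were called in no alternative.

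Markers place the libraries only in part with the label. Pdgfrb, the platelet-derived growth factor receptor of mesangial cells and pericytes, was at 32.0, 39.5 and 41.1 FPKM in Control and at 29.3, 29.9 and 28.4 FPKM with TGF-β1, and the smooth muscle actin Acta2 at 988, 912 and 1091 and at 3805, 4268 and 3587 FPKM. Of the 8 mesangial markers 3 were tested, and 1 was called higher and 1 lower. The mesangial markers Itga8, Thy1, Des and Pdgfra were under 1 FPKM throughout. Of markers of other cells, those of tubular epithelium summed to 125 to 160 FPKM in Control and 6.45 to 7.91 FPKM with TGF-β1, mostly as Cdh16, with Cdh1 near 0, and 2 of 2 tested were called lower. Podocyte markers summed to 19.7 to 24.9 and 12.6 to 13.7 FPKM (3 of 3 tested lower, Nphs1 under 1 FPKM), macrophage markers to 8.19 to 9.58 and 2.26 to 3.24 FPKM (1 of 2 tested lower, Ptprc at or near 0), and endothelial markers stayed under 1 FPKM. In bulk RNA fewer cells of a type and less RNA per cell cannot be told apart, and a part of these markers in the members' changes was not tested.

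The start regions of member genes were compared with those of other genes, because nuclear genes for mitochondrial proteins are known for binding sites of NRF1 (nuclear respiratory factor 1), the ETS factor GABP and YY1. Windows from 250 bases before to 50 after the start, from RefSeq on GRCm38.p6, were matched for 66 members. CGCATGCG, the core of an NRF1 site, was in the windows of 10.6% of members and 4.56% of 7975 tested genes. CCGGAAG, the core of an ETS site, was in 34.8% and 20.8%, and AAGATGGC, the core of a YY1 site, in 18.2% and 5.59%. The MYC E-box CACGTG was in 7.58% of members and 12.3% of tested genes. Both strands were searched, the ETS and YY1 cores can overlap in the letters AAG, and a match is a description of letters, not of binding. Of the members with a window, 4 were called higher and 8 lower. The ETS core was found in 1 of the 4 and 3 of the 8, the YY1 core in 1 of the 4 and 2 of the 8, the NRF1 core in none of the 12 and in 7 of 54 uncalled members, and the E-box in 2 of the 4, none of the 8 and 3 of the 54.

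Some of the windows follow, read in the direction of transcription, with matches in capitals, to show how these cores lie beside members that rose, fell or were not called. Mrps33 (chr6:39810887-39811186, minus strand) and Mrpl36 (chr13:73330759-73331058, plus strand) were called higher. Mrps11 (chr7:78782881-78783180, plus strand) and Mrps18a (chr17:46110754-46111053, plus strand) were called lower, and Mrps18b (chr17:35916391-35916690, minus strand) was not called and holds an NRF1 core.
Mrps33: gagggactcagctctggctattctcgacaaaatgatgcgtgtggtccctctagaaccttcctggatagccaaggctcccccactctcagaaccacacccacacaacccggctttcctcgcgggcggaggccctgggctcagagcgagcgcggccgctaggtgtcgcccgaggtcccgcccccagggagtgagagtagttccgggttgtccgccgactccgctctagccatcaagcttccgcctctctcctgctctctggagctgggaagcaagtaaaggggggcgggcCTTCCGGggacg
Mrpl36: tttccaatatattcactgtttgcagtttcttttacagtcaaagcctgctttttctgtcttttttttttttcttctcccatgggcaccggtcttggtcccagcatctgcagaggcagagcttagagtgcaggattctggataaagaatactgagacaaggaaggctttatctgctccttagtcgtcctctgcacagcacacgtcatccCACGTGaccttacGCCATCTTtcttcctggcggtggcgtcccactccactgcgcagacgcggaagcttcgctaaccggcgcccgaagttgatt
Mrps11: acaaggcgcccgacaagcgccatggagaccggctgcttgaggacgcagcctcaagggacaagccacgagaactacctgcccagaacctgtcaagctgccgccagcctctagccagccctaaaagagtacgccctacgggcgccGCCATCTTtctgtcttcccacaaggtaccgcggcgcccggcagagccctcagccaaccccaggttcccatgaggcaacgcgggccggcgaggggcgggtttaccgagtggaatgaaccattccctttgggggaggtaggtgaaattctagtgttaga
Mrps18a: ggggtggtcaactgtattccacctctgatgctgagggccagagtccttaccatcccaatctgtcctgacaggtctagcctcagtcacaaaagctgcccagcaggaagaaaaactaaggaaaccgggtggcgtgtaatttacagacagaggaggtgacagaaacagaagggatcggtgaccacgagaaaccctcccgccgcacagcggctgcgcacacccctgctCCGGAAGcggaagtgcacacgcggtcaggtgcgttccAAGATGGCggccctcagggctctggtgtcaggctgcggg
Mrps18b: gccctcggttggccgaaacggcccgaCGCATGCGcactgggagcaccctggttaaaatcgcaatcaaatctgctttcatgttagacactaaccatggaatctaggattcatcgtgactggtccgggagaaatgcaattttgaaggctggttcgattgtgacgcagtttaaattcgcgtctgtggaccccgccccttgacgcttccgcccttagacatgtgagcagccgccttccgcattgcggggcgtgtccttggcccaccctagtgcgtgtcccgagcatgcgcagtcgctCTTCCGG
Mrps33 holds an ETS core just after the start, and Mrps11 a YY1 core before it. Mrpl36 holds an E-box followed by a YY1 core. Mrps18a holds both an ETS and a YY1 core, and its paralogue Mrps18b an NRF1 and an ETS core.

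In the small subunit, 2 members rose and 3 fell. Mrps33, a protein found only in mitochondrial ribosomes (mm9 chr6:39751803-39760987), was listed at 155, 214 and 132 FPKM in Control and at 319, 328 and 288 FPKM with TGF-β1. The lowest TGF-β1 library was above the highest Control library, and the spread in Control was wide. Its mean of 167 ± 42.3 FPKM in Control became 312 ± 20.9 FPKM (SD, n = 3), the largest increase among members, with a log2 change of 0.93 (SE 0.18, adjusted p = 0.00711 in limma). With replicates 1 and 3 alone the log2 change of Mrps33 was 1.08. Mrps6 (chr16:92058515-92112472), the counterpart of the bacterial protein S6 on the platform of the small subunit, was at 80.4, 77.3 and 66.8 FPKM in Control and at 117, 119 and 122 FPKM with TGF-β1. The groups lay far apart and the TGF-β1 values were tight, with a log2 change of 0.67 (SE 0.091, adjusted p = 0.00169 in limma). Mrps6 overlaps Slc5a3, a solute carrier gene, on the same strand, so fragments in the shared stretch are uncertain.

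Mrps34 (chr17:25032061-25034447), a mitochondria-specific protein whose loss in people causes Leigh-like disease, had the largest decrease of the members. It was listed at 48.4, 41.3 and 40.5 FPKM in Control and at 27.0, 25.2 and 25.0 FPKM with TGF-β1. Every TGF-β1 value was below every Control value, and the log2 change was -0.73 (SE 0.094, adjusted p = 0.00131 in limma). Mrps34 overlaps Nme3 on the same and Mapk8ip3 on the opposite strand, and the FPKM estimate is not stated to use strand.

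Mrps11 (chr7:85928005-85937875), an RNA-binding protein of the platform with a bacterial counterpart, was at 29.5, 34.0 and 36.1 FPKM in Control and at 25.1, 19.9 and 22.0 FPKM with TGF-β1. The groups did not overlap, and the log2 change was -0.55 (SE 0.12, adjusted p = 0.00957 in limma). Mrps11 overlaps Mrpl46 on the opposite strand. With replicates 1 and 3 alone its log2 change was -0.46 and its adjusted p 0.0743, the highest over the alternatives, where the lowest was 0.00410. Mrps5 (chr2:127412958-127432565), the counterpart of a bacterial protein at the mRNA entry site, was at 30.9, 34.2 and 30.9 FPKM in Control and at 25.6, 26.4 and 25.4 FPKM with TGF-β1. The groups were separate by a small margin, with a log2 change of -0.30 (SE 0.075, adjusted p = 0.0174 in limma), the smallest change that was called. This call was lost without Control replicate 2, TGF-β1 replicate 1 or TGF-β1 replicate 3 and within replicates 1 and 3, over alternatives with adjusted p from 0.00340 to 0.0696.

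In the large subunit, 3 members rose, all with bacterial counterparts, a class that holds 30 large subunit members against 18 mitochondria-specific ones. Mrpl20 (chr4:155177645-155183885), whose bacterial counterpart binds the ribosomal RNA early in assembly, was at 47.5, 47.8 and 43.6 FPKM in Control and at 86.1, 85.7 and 87.1 FPKM with TGF-β1. Its replicates were the closest of the called members with an increase, and the groups were far apart. The log2 change was 0.89 (SE 0.071, adjusted p = 2.07e-04 in limma), and no other gene is annotated over it. Mrpl13 (chr15:55365649-55389303) was at 75.4, 80.4 and 69.1 FPKM in Control and at 110, 108 and 102 FPKM with TGF-β1. All TGF-β1 values were above all Control values, with a log2 change of 0.50 (SE 0.084, adjusted p = 0.00369 in limma). Mrpl13 overlaps Mtbp on the opposite strand. Its row names a transcript of the nonsense-mediated decay class, and whether a row holds the value of the gene or of the transcript named is not stated.

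Mrpl36 (chr13:73468457-73469623), a small protein whose bacterial counterpart binds zinc, was at 35.3, 23.4 and 24.8 FPKM in Control and at 51.7, 40.9 and 44.0 FPKM with TGF-β1. Replicate 1 was the highest library of each group, and the groups did not overlap. Its log2 change was 0.71 (SE 0.17, adjusted p = 0.0171 in limma). The call was lost without Control replicate 2, Control replicate 3 or TGF-β1 replicate 1 and within replicates 1 and 3, with adjusted p from 0.00507 to 0.0732 over the alternatives.

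Of the members that fell, 6 are large subunit proteins. Mrpl14 (chr17:45823271-45835444), whose bacterial counterpart lies at the interface of the subunits, was at 111, 102 and 105 FPKM in Control and at 77.8, 48.9 and 74.8 FPKM with TGF-β1. The groups were separate, and TGF-β1 replicate 2 was the lowest library by far. The log2 change was -0.68 (SE 0.18, adjusted p = 0.0230 in limma), and -0.49 with replicates 1 and 3 alone. The call was lost when any 1 of the Control libraries was left out, and adjusted p ran from 0.00537 to 0.0708 over the alternatives. Mrpl14 overlaps Tmem63b on the opposite strand.

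Mrpl48 (chr7:107694265-107756811), a mitochondria-specific protein of the central protuberance, was at 94.0, 108 and 106 FPKM in Control and at 61.4, 64.3 and 73.6 FPKM with TGF-β1. The groups were well apart, with a log2 change of -0.62 (SE 0.10, adjusted p = 0.00339 in limma). It overlaps D630004N19Rik on its own strand and Rab6 and Gm15683 on the other. Mrpl27 (chr11:94515081-94521403), also in the central protuberance and in bacteria close to the site of peptide bond formation, was at 65.9, 56.7 and 44.8 FPKM in Control and at 39.3, 37.7 and 38.0 FPKM with TGF-β1. Its Control values were wide and its TGF-β1 values narrow, and the groups did not overlap (log2 change -0.51, SE 0.14, limma adjusted p = 0.0260). Without any 1 library other than Control replicate 3, and within replicates 1 and 3, Mrpl27 was not called, with adjusted p from 0.00398 to 0.1465 over the alternatives. Mrpl27 overlaps Eme1 on the opposite strand.

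The proteins around the exit of the peptide tunnel, where the new chain meets the inner membrane, held 2 of the decreases. Mrpl24 (chr3:87723428-87727594) was at 57.3, 68.2 and 67.2 FPKM in Control and at 42.6, 47.0 and 43.2 FPKM with TGF-β1. The groups did not overlap, with a log2 change of -0.52 (SE 0.096, adjusted p = 0.00533 in limma). Mrpl24 overlaps Rrnad1 on the opposite strand. Mrpl23 (chr7:149718704-149726652) was at 114, 143 and 127 FPKM in Control and at 87.5, 110 and 78.1 FPKM with TGF-β1. Replicate 2 was the highest library in both groups, and TGF-β1 replicate 2 lay just under Control replicate 1. The log2 change was -0.48 (SE 0.15, adjusted p = 0.0387 in limma). That call was lost without Control replicate 2 or 3, without TGF-β1 replicate 1 or 3 and without the filter on low values, with adjusted p from 0.00899 to 0.113.

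Mrps18a (chr17:46247935-46265859), a large subunit protein despite its name, was at 70.5, 66.5 and 63.3 FPKM in Control and at 51.1, 40.9 and 47.4 FPKM with TGF-β1. The groups were separate, with a log2 change of -0.52 (SE 0.10, adjusted p = 0.00737 in limma). Mrps18a overlaps Rsph9 on the opposite strand. Its paralogues sit in the small subunit and were not called. Mrps18b was at 64.2, 58.5 and 79.9 FPKM in Control and at 76.9, 84.4 and 75.2 FPKM with TGF-β1, and Mrps18c at 92.4, 78.8 and 46.6 and at 62.1, 57.8 and 55.1 FPKM. Both overlapped between the groups, and Control replicate 3 was the highest Control library in one and the lowest of all 6 in the other. Their log2 changes were 0.23 (95% interval -0.08 to 0.54, limma adjusted p = 0.186) and -0.26 (-0.85 to 0.34, limma adjusted p = 0.423). Without Control replicate 3 they were 0.36 (limma adjusted p = 0.0246) and -0.54 (limma adjusted p = 0.0110), the lowest adjusted p of any alternative, with highest values of 0.839 and 0.862.

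**Figure D3:**
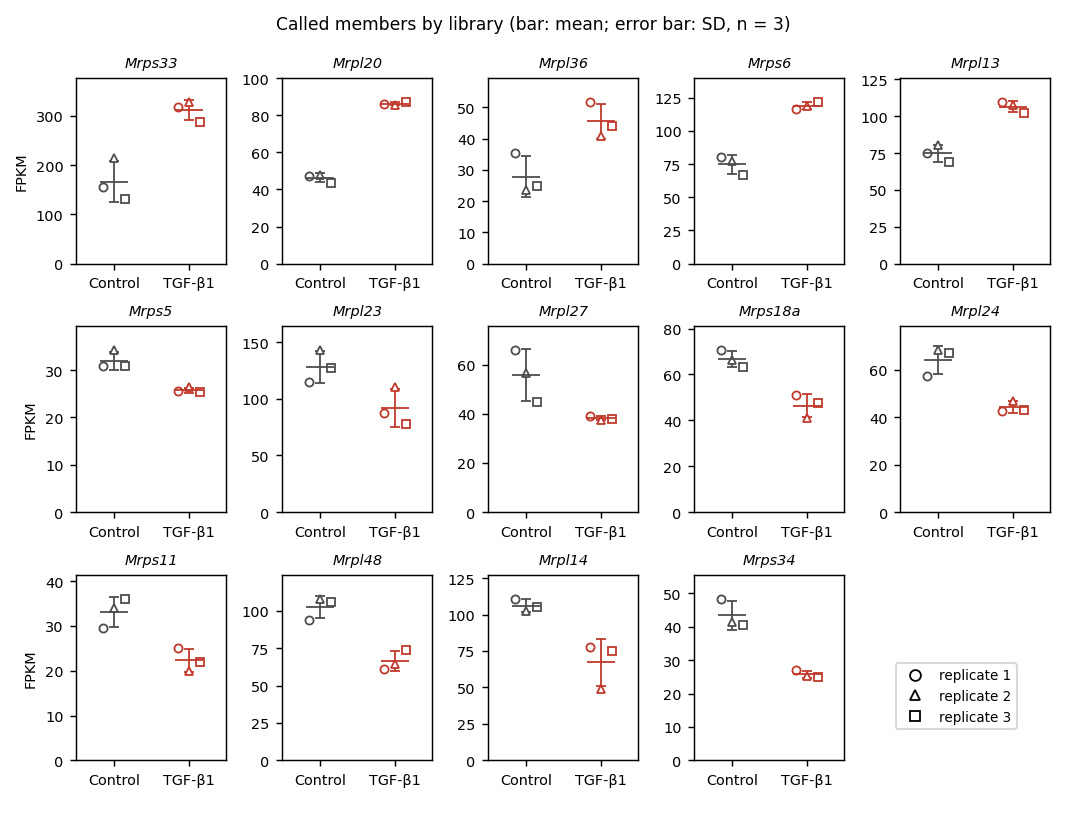
FPKM (y axis, from 0) of the 14 called members in each library, by group (x axis). Symbols mark replicates 1 to 3, the horizontal bar the mean and the error bar the SD (n = 3), and in each panel the TGF-β1 libraries lie wholly above or below the Control libraries, as for Mrpl20 with 85.7 to 87.1 against 43.6 to 47.8 FPKM.

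Grouped by their place in the ribosome, calls were spread over the lists. Of 30 large subunit proteins with a bacterial counterpart, 3 were higher and 4 lower (median log2 change 0.10). Among 18 mitochondria-specific large subunit proteins none was higher and 2 were lower (median -0.03). Of 16 small subunit proteins with a bacterial counterpart, 1 was higher and 2 were lower (median 0.10), and of 10 mitochondria-specific ones 1 was higher and 1 lower (median 0.01). The central protuberance, which contacts the head of the small subunit, had 2 of 7 proteins called lower, and 1 of its 7 log2 changes was above 0 (median -0.27). The tunnel exit had 2 of 9 called lower (median -0.00). Among all tested rows 24.5% were called higher and 23.6% lower, and the median was -0.02. The calls of the central protuberance were 28.6% of its list and those of the tunnel exit 22.2%, all lower. With scaling to the protein-coding sum the medians of these 4 main lists were -0.08, -0.22, -0.09 and -0.17, and that of the central protuberance -0.46, beside -0.19 for all tested rows, so each moved by about as much as all rows did.

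The stalk of the large subunit, which recruits translation factors, had no called member. Mrpl12, which forms the stalk itself, was at 62.7, 21.4 and 83.9 FPKM in Control and at 79.4, 28.8 and 84.7 FPKM with TGF-β1. Replicate 2 was the lowest in both groups, so the log2 change of 0.25 had an interval from -1.23 to 1.74 (limma adjusted p = 0.756). Mrpl10, the base of the stalk, was at 27.0, 20.7 and 25.1 FPKM in Control and at 41.2, 23.9 and 42.8 FPKM with TGF-β1. Here TGF-β1 replicate 2 lay within the Control range, with a log2 change of 0.51 (limma adjusted p = 0.122). Mrpl11, which binds beside it, was at 39.1, 37.8 and 38.5 FPKM in Control and at 47.6, 37.2 and 48.9 FPKM with TGF-β1, again with replicate 2 alone under the Control values (log2 change 0.20, limma adjusted p = 0.211). With replicates 1 and 3 alone, Mrpl10 and Mrpl11 were called higher, with log2 changes of 0.67 and 0.31 and limma adjusted p of 0.0114 and 0.0490, while Mrpl12 was at 0.17 (0.450). Over the alternatives adjusted p ran from 0.00813 to 0.303 in Mrpl10, from 0.0187 to 0.973 in Mrpl11 and from 0.128 to 0.990 in Mrpl12.

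Of 13 members in which human mutations cause mitochondrial disease, Mrpl24 and Mrps34 were called lower and none higher. That is 15.4% called, against 48.1% of all tested rows. The median log2 change of the 13 was 0.07, or -0.11 with scaling to the protein-coding sum. The other disease genes were Mrpl3, Mrpl12, Mrpl44, Mrps2, Mrps7, Mrps14, Mrps16, Mrps22, Mrps23, Mrps25 and Mrps28, with log2 changes from -0.25 in Mrps25 to 0.63 in Mrps14. Mrps14 was at 41.1, 42.4 and 18.2 FPKM in Control and at 52.1, 47.9 and 49.1 FPKM with TGF-β1. The groups did not overlap, but Control replicate 3 was far below the other Control libraries, and the limma adjusted p was 0.146. Without that library the log2 change was 0.25 (limma adjusted p = 0.0413, the lowest of the alternatives, against a highest of 0.273). Mrps23 was at 49.3, 40.8 and 35.2 FPKM in Control and at 60.9, 31.6 and 62.9 FPKM with TGF-β1. TGF-β1 replicate 2 was the lowest of the 6 libraries, and without it the log2 change was 0.57 (limma adjusted p = 0.0334) in place of 0.25 (0.491).

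The most abundant members on the FPKM scale, which is per length, were Mrpl52, Mrps21, Mrps33, Mrpl34 and Mrpl54. Mrpl52, a mitochondria-specific large subunit protein with a transcript of 412 nt, was at 614, 160 and 303 FPKM in Control and at 537, 166 and 521 FPKM with TGF-β1. It varied more between replicates than between groups, and its interval was the widest of these 5, from -1.32 to 1.75. Mrps21, which has a bacterial counterpart in the small subunit, was at 257, 245 and 245 FPKM in Control and at 282, 321 and 272 FPKM with TGF-β1. Its groups did not overlap, with a log2 change of 0.22 (limma adjusted p = 0.0871). Mrpl34 and Mrpl54 had log2 changes of 0.16 and -0.28 (limma adjusted p = 0.569 and 0.572).

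Several members were measured with narrow intervals around 0. Mrpl32, a large subunit protein that a mitochondrial protease must cut before assembly, was at 55.3, 56.8 and 58.9 FPKM in Control and at 55.4, 56.0 and 59.1 FPKM with TGF-β1. The groups overlapped fully, and the log2 change was -0.00 with an interval from -0.17 to 0.16. Mrps30 (-0.25 to 0.23) and Mrpl18 (-0.26 to 0.26) had similar intervals, and those of Mrpl55 (-0.41 to 0.40) and Mrpl28 (-0.38 to 0.43) were wider. These members were picked for the smallest changes, and their intervals leave out the choice of scaling. Scaling to the protein-coding sum moved the median of all rows from -0.02 to -0.19. Mrps36, outside the ribosome, was at 65.7, 50.5 and 40.8 FPKM in Control and at 63.7, 41.8 and 61.9 FPKM with TGF-β1, with overlapping groups and a log2 change of 0.09 (-0.46 to 0.64, limma adjusted p = 0.760).

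Many members share a start region with another gene. In the mm9 annotation, 28 members had a protein-coding gene that starts within 1000 bp and runs the other way, with a median distance of 155.0 bp. Of the 26 such neighbours tested, among them Mrps11 and Mrpl46 as neighbours of each other, 3 were called higher and 6 lower, against 48.1% called among all tested rows. In a single pair were both genes called: Mrpl13 and Mtbp, 340 bp apart, where Mtbp had a log2 change of 0.67 (limma adjusted p = 0.0126). Mrpl13 and Mtbp overlap on opposite strands, as do Mrpl18 and Tcp1, and Mrps11 and Mrpl46, named below. Whether strand was used is not stated, so fragments in a shared stretch are uncertain. In 8 pairs the neighbour was called and the member was not. Tcp1, a subunit of the cytosolic chaperonin, rose in mean from 107 FPKM to 190 FPKM, by 0.82 on the log2 scale (adjusted p = 0.00242 in limma), beside Mrpl18 at -0.00, and Pnpla7 fell by 0.95 (7.38e-04) beside Mrpl41 at 0.06. Mrps11 and Mrpl46, which start 412 bp apart, had log2 changes of -0.55 and -0.31, the latter with a limma adjusted p of 0.146. These pairs, named after their values were seen, show start regions in which neighbours differed in call, without a test of that difference.

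The other genes of mitochondrial protein synthesis were described in the same way. Of 7 ribosomal subunits without an Mrp name, 3 rose and 2 fell, which is 71.4% of a short list, against 48.1% of all tested rows. Mrp63, Chchd1 and Aurkaip1 had log2 changes of 0.61, 0.48 and 0.48 (limma adjusted p = 0.0475, 0.0158 and 0.00160), and Ict1, a release factor built into the large subunit, and Gadd45gip1 had -0.50 and -0.37 (limma adjusted p = 0.00889 and 0.0309). With scaling to the protein-coding sum, 1 of the 7 was called higher and 2 lower. Dap3, a GTP-binding small subunit protein, was at -0.17 (limma adjusted p = 0.413). Of 14 translation factors tested, Gfm1, the elongation factor that moves the ribosome along, rose by 0.57 (limma adjusted p = 0.0102), Lrpprc, which stabilises mitochondrial mRNAs, rose by 0.35 (0.0326), and Oxa1l, which inserts new chains into the inner membrane, fell by 0.54 (0.00173). The 3 calls were 21.4% of the list, against 48.1% of all tested rows. With scaling to the protein-coding sum none of the 14 was higher and 4 were lower.

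Of 22 assembly factors, 2 were called higher and 3 lower, or 1 and 7 with scaling to the protein-coding sum. Without that scaling this is 22.7% called, against 48.1% of all tested rows. The GTPase Mtg1 was at 4.76, 3.802 and 3.15 FPKM in Control and at 6.77, 7.77 and 7.37 FPKM with TGF-β1, with separate groups and a log2 change of 0.77 (limma adjusted p = 0.00511). Mettl17 had the largest negative value of that list, -0.63, and was not called (limma adjusted p = 0.0979). Among 9 genes of mitochondrial transcription and genome maintenance, Polrmt, the mitochondrial RNA polymerase, was the single call (11.1%, against 48.1% of all tested rows). With scaling to the protein-coding sum 3 of the 9 were called lower. Polrmt was at 64.2, 64.4 and 42.5 FPKM in Control and at 28.8, 39.7 and 30.4 FPKM with TGF-β1, with separate groups and a log2 change of -0.76 (limma adjusted p = 0.0217). Polg2 was at -0.42 (0.0739). The single row matched among mitochondrial mRNAs, mt-Cytb, fell from 19097 ± 2691 FPKM in Control to 11699 ± 623 FPKM (SD, n = 3), by 0.70 on the log2 scale (adjusted p = 0.0187 in limma).

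Regulators of mitochondrial biogenesis had 3 of 7 tested genes called higher (24.5% of all tested rows were), or 2 higher and 1 lower with scaling to the protein-coding sum. Myc, a transcription factor that binds the E-box, was at 7.75, 6.77 and 7.94 FPKM in Control and at 34.4, 32.9 and 39.5 FPKM with TGF-β1. All TGF-β1 values were far above the highest Control value, with a log2 change of 2.11 (limma adjusted p = 3.53e-05). Pprc1, a coactivator of NRF1, and Gabpb1, a subunit of GABP, had log2 changes of 0.53 and 0.41 (limma adjusted p = 0.00586 and 0.0287). Nrf1 and Yy1 themselves were at -0.22 and 0.16 and were not called (limma adjusted p = 0.196 and 0.181). The coactivators Ppargc1a and Ppargc1b were under the filter and had no test. Ppargc1a was listed at 0.969, 0.738 and 0.489 FPKM in Control and at 0.0873, 0.0158 and 0.0887 FPKM with TGF-β1, and Ppargc1b at 0.550, 0.734 and 0.537 and at 0.237, 0.171 and 0.241 FPKM. In both, every TGF-β1 value was below every Control value.

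The cytosolic ribosome and the respiratory chain were set beside the members as the most similar gene groups. Of 75 cytosolic ribosomal protein genes tested, 15 were higher and 1 lower (21.3% called), with a median log2 change of 0.23 and 61 of 75 above 0. With scaling to the protein-coding sum these were 3 and 1, with a median of 0.04. Of 71 genes for subunits of oxidative phosphorylation, 6 were higher and 8 lower (19.7% called), with a median of -0.00, and 1 and 20 with a median of -0.20 under that scaling. The members, with 18.7% called and a median of 0.06, had a share of calls close to both lists and a median between them under both scalings, which is a description and not a test. The gap of the replicate 2 libraries was also seen in these lists: Rpl36 was at 866 and 856 FPKM in TGF-β1 replicates 1 and 3 and at 42.6 FPKM in replicate 2, and Uqcr11 at 1122, 1054 and 64.7 FPKM.

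**Figure D4:**
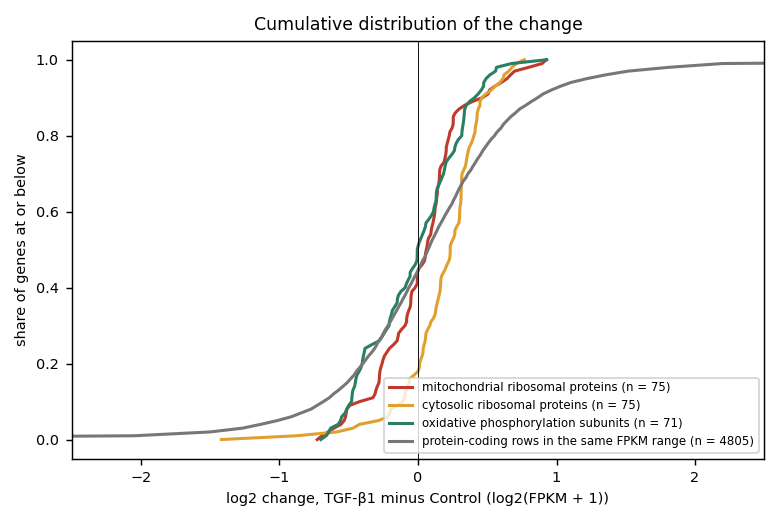
Share of genes at or below each log2 change (y axis) against the log2 change, TGF-β1 minus Control (x axis), for 75 members, 75 cytosolic ribosomal protein genes, 71 oxidative phosphorylation genes and 4805 protein-coding rows in the members' range of expression. The members cross the middle at 0.06, the cytosolic list at 0.23, and the wide tails of the 4805 rows hold the 12.5% of them that reached 1 on the log2 scale in either direction.

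**Figure D5:**
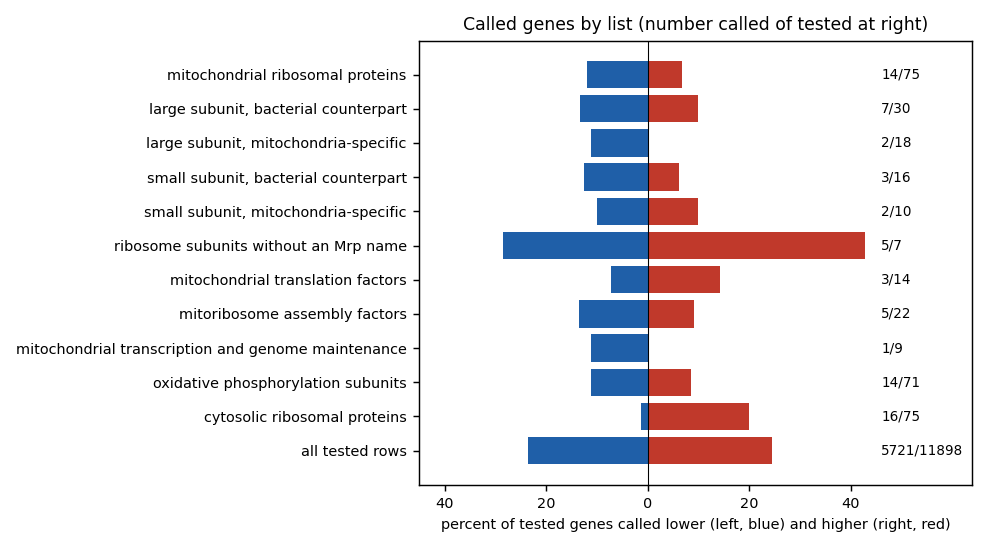
Percent of tested genes called lower (blue, to the left) and higher (red, to the right) in each list, with the number called of the number tested at the right. Members had 12% lower and 6.67% higher, and all tested rows 23.6% lower and 24.5% higher.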

How the data were processed

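Per the labels, RNA was sequenced in 3 Control and 3 TGF-β1 libraries. The authors mapped reads to mouse build mm9 with TopHat (TopHat2 2.0.11 in the submitters' processing notes) and deposited FPKM from Cufflinks, 1 column per library. Columns were matched to samples by name, and 0 were left unmatched. Whether a row is a gene or 1 transcript, and whether strand was used, is not given in the sources used here. The authors tested counts with DESeq, whereas FPKM need a test on a log scale.

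The test was limma 3.58.1 in R 4.3.3 (lmFit, eBayes with trend), two-sided, on log2(FPKM + 1) over all rows with a mean of at least 1 FPKM, with Benjamini-Hochberg adjustment and a call at 0.05. The added 1 understates changes of low genes. The script was tested on simulated data. Alternatives were other pseudocounts, filters, scalings and thresholds, limma without the trend, replicate terms and leaving out each library. Depth was recovered from FPKM steps, assuming fragments of 200 nt. It used values under 0.6 FPKM in genes with a single annotated transcript, protein coding and at least 1000 nt long. Of these values, 99.2 to 99.8% were within 0.05 of a whole number of fragments, against 12.7 to 15.5% when jittered.

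Transcript lengths, GC content, overlaps and coordinates (1-based, mm9) came from GENCODE M1, in which all 75 members were found by transcript, and 31 overlap another gene. Start windows came from RefSeq (GRCm38.p6). No window was matched for Mrpl13, Mrpl15, Mrpl19, Mrpl38, Mrpl4, Mrpl54, Mrps28, Mrps34 and Mrps35. Among members with a single window, those printed are the 2 called members in each direction with the largest change and an NRF1, ETS or YY1 core, and the member with an NRF1 core and the highest Control FPKM, and this choice was made after the windows had been seen.

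Members and lists were chosen with earlier results of these data known. Named members are up to 6 called ones with the largest change in each direction, the 5 with the highest FPKM, the 5 with the smallest change, the stalk, the Mrps18 paralogues, the disease genes and Mrps36, and in other lists the 2 genes with the largest change. Mrpl27, Mrpl23 and Mrps5, which were also called, and the further genes named were chosen after their values were seen. Python 3.11.15, numpy 2.4.6, pandas 2.3.3 and matplotlib 3.10.9 were used.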

Additional observations from a re-analysis of the deposited data

Results flagged for a closer look

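Mrps36-ps1, a row named as a pseudogene of Mrps36 and left out of the members (mm9 chr17:54005742-54006366), was noticed as a signal outside the comparisons above that was higher than in the Control libraries. It was at 2.09, 5.48 and 1.31 FPKM in Control and at 8.98, 12.4 and 7.35 FPKM with TGF-β1. The groups did not overlap, and replicate 2 was the highest in both. The mean was 2.96 FPKM in Control and 9.57 FPKM with TGF-β1, a log2 change of 1.53 (SE 0.40, adjusted p = 0.0200 in limma, and 0.0346 without the filter on low values). Mrps36 itself had a log2 change of 0.09. Fragments from near-identical copies can be assigned to either row, and the part of that in this value was not tested. Mrpl23-ps1 had a log2 change of -0.36 (limma adjusted p = 0.272).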

How the results depend on the processing

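Of 17 alternatives chosen at the start and 2 added after seeing the data, none turned the direction of a called member. The members called higher numbered 5, and 4 to 8 when 1 library was left out, with 8 without Control replicate 1 and 8 without TGF-β1 replicate 2. The members called lower numbered 9, 5 to 9 when 1 library was left out (5 without Control replicate 2) and 5 at an adjusted p under 0.01, where 3672 genes were called in all. Scaling to the summed FPKM of protein-coding rows (300 nt or longer), an added alternative, moved the median of all rows from -0.02 to -0.19, and 2003 genes were then called higher and 3924 lower. Members called were then 5 higher and 17 lower, their median was -0.13 in place of 0.06 and stayed above that of all rows, and the difference of their summed FPKM, TGF-β1 minus Control, was -369.1 in place of 215.9. With upper-quartile scaling the members' median was -0.0017, against -0.07 for all rows. Without Control replicate 2 and with no rescaling it was -0.03, below the -0.02 of all rows. The direction of the median therefore depends on the scaling and on the libraries used. With the trend on GC content and length removed, also added, 6 of 69 members were higher and 9 lower. Among the named members, 613 single values kept their direction and side of the threshold, 12 passed it newly, 10 lost it, and 48 of uncalled members moved by more than the replicate SD. Over all rows, deviations of libraries with the same replicate number correlated at 0.0921, 0.232 and 0.0853, which is not above 0.1 in every pair, so the numbers were not taken to pair the samples. Over the 75 members the same values were 0.587, 0.672 and 0.236, and each Control library correlated best with the TGF-β1 library of its own number, a hint from the data and not from the labels. With the replicate block, 5391 genes were called, and 7 members were higher and 9 lower, with Mrpl10 and Mrpl15 as the added calls. Counting error was at or above the replicate SD in 4 of 75 members, Mrpl20 among them, and its median was 0.0704 on the log2 scale against 0.192 for the replicate SD.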
